A study of Mus musculus with 108 samples.

Results

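Photoreceptor and phototransduction genes were followed through glaucoma of the DBA/2J mouse, a strain that develops the disease with age, in retina and in optic nerve head (ONH). The set was a list of 36 gene symbols covering the rod and cone transducins, phosphodiesterases, cyclic nucleotide-gated channels, cone opsins, shut-off proteins, calcium sensors, disc proteins and photoreceptor transcription factors. Of these, 33 were matched to an array probe set that named exactly 1 gene, out of 18194 genes in all, and Cnga3, Gucy2f and Nr2e3 were not matched. Where a gene had several probe sets, the one with the highest mean in the tissue was used. A gene was tested when its log2 signal reached 5 on at least 8 arrays of the tissue, which 31 members did in the ONH and 32 in the retina. Too few arrays reached that level for Gucy2e in both tissues (retina controls 3.58 ± 0.273, SD, n = 10) and for Cngb3 in the ONH (controls 4.76 ± 0.344, SD, n = 10).

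Photoreceptors turn light into a change of membrane current. A light-activated opsin drives the G protein transducin, transducin releases the inhibition of a cGMP phosphodiesterase, and the fall in cGMP closes cation channels in the outer segment. Arrestins, an opsin kinase and a GTPase-activating protein end the response, and calcium sensors speed the resynthesis of cGMP. Glaucoma is a disease of retinal ganglion cells and their axons, which leave the eye through the ONH. Photoreceptors are cells of the outer retina and are no component of the nerve head itself.

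The homeodomain factors Crx and Otx2 bind TAATCC-like elements upstream of photoreceptor genes. The 250 bases upstream of the annotated start were taken from RefSeq (GRCm38.p6) for the 26 listed genes that had an entry. TAATCC, read on either strand, occurred in the window of 10 of these 26 genes (38.5%) and of 7.21% of all 27025 genes with windows of this length. A core of the element recognised by Maf-family factors such as Nrl, TGCTGA on either strand, occurred in 4 of the 26 genes (15.4%) and in 18% of all genes. A match is a string of letters and no evidence of binding, and the 2 motifs do not overlap in the windows printed here. The windows are shown for Cnga1, Crx and Cngb1, which are among the genes with retinal differences described later, and for Sag and Gnat2 as a rod and a cone gene. Letters are 5′ to 3′ on the strand of the gene, with TAATCC, its complement GGATTA and TGCTGA in capitals. The Cnga1 window is chr5:72642753-72643002 (minus strand), the Crx window chr7:15879956-15880205 (minus strand) and the Cngb1 window chr8:95306586-95306835 (minus strand). The Sag window is chr1:87803430-87803679 (plus strand) and the Gnat2 window chr3:108092816-108093065 (plus strand).
Cnga1: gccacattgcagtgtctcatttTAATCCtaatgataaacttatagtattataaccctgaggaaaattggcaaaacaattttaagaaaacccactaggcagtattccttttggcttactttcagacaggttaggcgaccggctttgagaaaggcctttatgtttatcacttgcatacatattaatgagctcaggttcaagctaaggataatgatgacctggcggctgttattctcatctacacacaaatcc
Crx: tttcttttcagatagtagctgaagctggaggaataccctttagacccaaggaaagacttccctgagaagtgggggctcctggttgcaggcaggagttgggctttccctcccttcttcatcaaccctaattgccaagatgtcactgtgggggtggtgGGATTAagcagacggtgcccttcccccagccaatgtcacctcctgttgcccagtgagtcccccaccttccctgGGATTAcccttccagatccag
Cngb1: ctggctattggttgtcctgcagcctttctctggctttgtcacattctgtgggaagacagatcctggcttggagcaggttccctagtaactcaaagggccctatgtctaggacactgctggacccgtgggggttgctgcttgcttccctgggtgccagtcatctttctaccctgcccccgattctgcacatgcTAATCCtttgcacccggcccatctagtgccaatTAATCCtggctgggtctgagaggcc
Sag: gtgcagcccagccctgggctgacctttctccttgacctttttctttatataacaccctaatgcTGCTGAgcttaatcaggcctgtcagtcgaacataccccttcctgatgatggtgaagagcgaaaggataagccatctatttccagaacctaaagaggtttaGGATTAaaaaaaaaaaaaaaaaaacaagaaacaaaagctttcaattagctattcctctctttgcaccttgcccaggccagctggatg
Gnat2: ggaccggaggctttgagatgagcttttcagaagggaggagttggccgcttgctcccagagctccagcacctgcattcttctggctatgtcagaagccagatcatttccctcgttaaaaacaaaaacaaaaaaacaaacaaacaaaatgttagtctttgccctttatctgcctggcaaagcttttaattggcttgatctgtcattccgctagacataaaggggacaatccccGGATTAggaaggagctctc
The matches started 228 bases before the start of Cnga1, 94 and 21 bases before that of Crx, 58 and 25 bases before that of Cngb1, 87 bases before that of Sag and 19 bases before that of Gnat2. Every window shown holds TAATCC. Among further genes with retinal calls and a window, Abca4 and Guca1a held it too. Prph2, Slc24a1, Nrl, Rom1, Grk1 and Pde6b held none. A link between the motif and the retinal differences was not tested.

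All animals were female and untreated, and expression was measured on Affymetrix Mouse Genome 430 2.0 arrays as log2 signal. DBA/2J mice aged 10.5 months were labelled by eye as no or early glaucoma (in 2 sets, 1 and 2, whose difference the labels do not explain), moderate or severe glaucoma. D2-Gpnmb+ mice aged 10.5 months, which carry a working Gpnmb allele on the same background and have no glaucoma, were the controls, and DBA/2J mice aged 4.5 months were the preglaucoma group (ONH only). There were 60 ONH arrays (10 control, 10 preglaucoma, 10 and 11 no or early, 9 moderate, 10 severe) and 48 retina arrays (10 control, 10 and 10 no or early, 8 moderate, 10 severe). Each array is 1 eye, the number of arrays limits the precision, and some mice gave both eyes. The ONH was punched with a 1 mm glass capillary and, per the labels, included a little central retina, choroid and sclera. In bulk tissue, fewer photoreceptors and less RNA per photoreceptor cannot be told apart. Gpnmb checked the genotype labels: its log2 signal was 9.23 ± 0.434 in control ONH (SD, n = 10) and between 5.75 and 7.92 in every 10.5-month DBA/2J ONH. Severe replicates 4 and 5, both eyes of 1 mouse labelled female, had a low Xist signal (5.35 and 6.64 in the ONH, 3.85 and 2.89 in the retina, against severe medians of 11.30 and 12.05). Results on severe eyes were recomputed without them. The 10 control eyes came from 7 mice, all of 1 range of mouse numbers. That range was shared by 16 of the 40 ONH and 16 of the 38 retina arrays of 10.5-month DBA/2J mice. Preglaucoma mice came from other ranges only. Number range and group thus cannot be told apart for preglaucoma, and comparisons with controls were repeated within the shared range.

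Photoreceptor RNA was present in every ONH group, at a level that varied widely between eyes. The mean log2 signal of the 31 members tested in both tissues was 8.82 ± 0.583 in control ONH (SD, n = 10). It was 9.02 ± 0.493 in preglaucoma (n = 10), 8.67 ± 0.337 and 9.003 ± 0.478 in the no or early sets 1 and 2 (n = 10 and 11) and 9.12 ± 0.439 in moderate eyes (n = 9). These groups overlapped. Severe ONH averaged 8.55 ± 1.63 (n = 10), with a lowest value of 4.30, a median of 9.16 and a highest of 9.62, so its mean was pulled by a low array. In the retina the same mean lay within a narrow band: 10.79 ± 0.0221 in controls (n = 10), 10.79 ± 0.0274 and 10.79 ± 0.0377 in the no or early sets, 10.74 ± 0.102 in moderate (n = 8) and 10.82 ± 0.0446 in severe eyes (n = 10). The median SD of a member within groups came to 0.923 for ONH and 0.102 for retina arrays, a ratio of 9.07. Without severe replicates 3 and 6 the ONH value was 0.532 and the ratio 5.22.

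**Figure D1:**
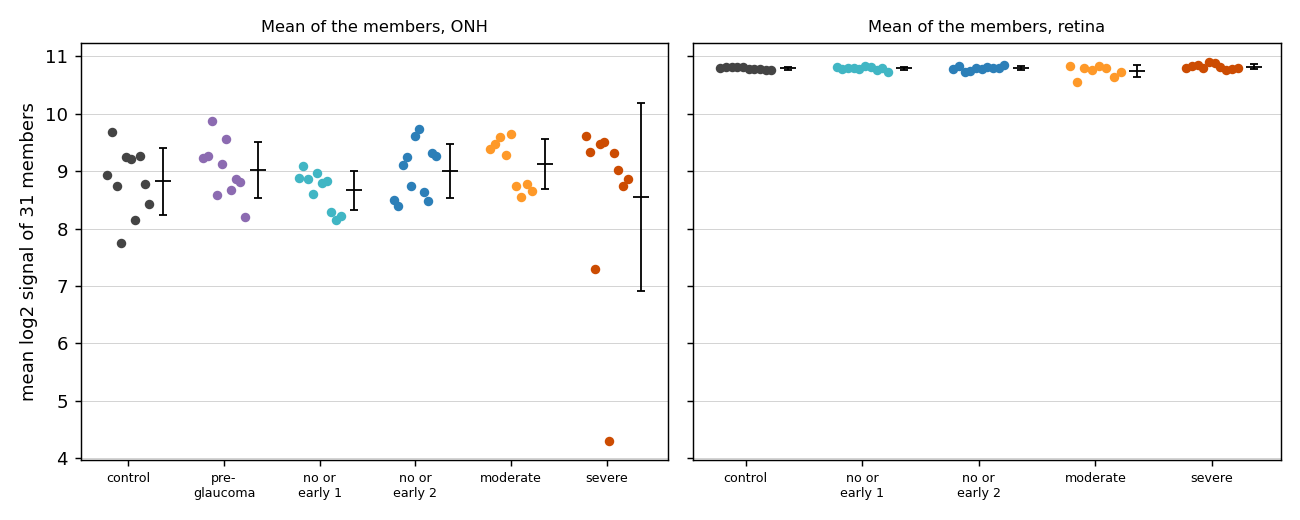
Mean log2 signal of the 31 photoreceptor and phototransduction genes on each ONH array (left) and retina array (right), by group, with group means and SDs as bars. ONH arrays spread widely and severe replicate 6 stands at 4.30, while retina group means lie between 10.74 and 10.82.

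ONH levels by role are group medians that start with controls and preglaucoma, pass through the first and then the second no or early set, and end with moderate and severe eyes. Gnat1, the alpha subunit of rod transducin, had ONH medians of 11.71, 11.88, 11.57, 11.79, 11.81 and 11.82, with control values from 10.56 to 12.19, the next 4 groups between 10.96 and 12.30 and severe values from 4.77 to 12.21. Its cone counterpart Gnat2 had ONH medians of 7.56, 7.68, 7.35, 7.91, 7.89 and 7.71, with control values from 6.81 to 8.43, the next 4 groups between 6.28 and 8.74 and severe values from 3.61 to 8.29. In both genes the groups overlapped and the lowest severe value was far under every control. Pde6b, a catalytic subunit of the rod phosphodiesterase, had ONH medians of 10.16, 10.29, 9.80, 10.28, 10.36 and 10.22, with control values from 8.51 to 10.97, the next 4 groups between 8.91 and 11.18 and severe values from 2.94 to 10.86. Pde6h, the inhibitory subunit of the cone enzyme, had ONH medians of 7.15, 7.30, 7.06, 7.50, 7.80 and 7.60, with control values from 6.497 to 7.97, the next 4 groups between 6.22 and 8.32 and severe values from 5.27 to 8.13. Neither enzyme subunit separated any group from the controls. The short-wavelength cone opsin Opn1sw had ONH medians of 8.34, 8.54, 8.05, 8.73, 8.79 and 8.63, with control values from 6.598 to 9.64, the next 4 groups between 7.40 and 9.87 and severe values from 3.90 to 9.49. The middle-wavelength opsin Opn1mw had ONH medians of 4.96, 5.09, 4.96, 5.28, 5.56 and 5.26, with control values from 4.12 to 5.97, the next 4 groups between 3.94 and 6.59 and severe values from 3.10 to 6.10. The medians of Opn1mw lay near the filter level of 5, and the groups overlapped for both opsins. Sag, which quenches the activated rod opsin, had ONH medians of 12.40, 12.43, 12.33, 12.56, 12.60 and 12.58, with control values from 11.24 to 12.88, the next 4 groups between 11.75 and 12.90 and severe values from 5.89 to 12.86. Its cone relative Arr3 had ONH medians of 8.48, 8.56, 8.18, 8.62, 9.15 and 9.01, with control values from 6.83 to 9.79, the next 4 groups between 7.28 and 9.68 and severe values from 4.08 to 9.94. The severe median of Arr3 exceeded the control median, while its lowest severe array lay under all controls. Nrl, which directs the rod fate, had ONH medians of 9.88, 10.02, 9.55, 9.95, 9.97 and 9.85, with control values from 8.01 to 10.75, the next 4 groups between 8.57 and 11.05 and severe values from 2.88 to 10.45. Crx, needed for the outer segment programme of rods and cones, had ONH medians of 10.09, 10.18, 9.78, 10.12, 10.16 and 10.20, with control values from 8.74 to 10.78, the next 4 groups between 8.81 and 11.06 and severe values from 3.52 to 10.68. For both transcription factors the groups overlapped.

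Severe ONH replicate 6 carried almost no photoreceptor signal. Of the 31 members, 29 were lower there than on all 59 other ONH arrays, and 6 reached a log2 signal of 5. Gnat1, the rod transducin alpha subunit, read 4.77 there and between 11.44 and 12.21 on the other 8 severe ONH arrays (replicate 3 left aside). Pde6g, the inhibitory subunit of the rod phosphodiesterase, read 2.96 against 10.41 to 11.51. Nrl, the transcription factor that sets rod identity, read 2.88 against 9.33 to 10.45. Sag, the rod arrestin, kept a signal of 5.89 against 12.42 to 12.86. The median over members was −5.17 relative to the mean of those 8 arrays. Gnb1, a transducin beta subunit found in rods and in most other cells, read 12.38 there against 12.71 to 12.90. Gngt2, the cone transducin gamma subunit, read 5.32 and ranked 20th of 60 arrays.

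Genes of other layers were low on the same array. Rpe65, the isomerase of the pigment epithelium, read 6.70 against 10.17 to 10.93 on the other 8 severe arrays, and Gad1, an enzyme of GABAergic amacrine and horizontal cells, read 3.57 against 7.89 to 9.38. The bipolar marker mean was 4.93 and the pigment epithelium mean 6.32, against severe medians of 7.10 and 8.65. Gfap, the astrocyte filament gene, read 11.41 against 10.65 to 11.25, and the microglial adaptor Tyrobp read 8.70, within the other arrays' 8.55 to 9.17. The mean of the nerve head glia and myelin markers, which include Gfap, was not raised (8.08, severe median 8.29). The Müller glia mean was 10.16 (severe median 10.56). Of its genes, Glul read 11.98 and Rlbp1 8.30, each the lowest of 60 ONH arrays. The retina of the same eye held the photoreceptor signal: 20 of 31 members lay within the range of the other 8 severe retinas, and its Gnat1 signal was 12.92. Severe ONH replicate 3 was also low in photoreceptor and bipolar genes, with a member mean of 7.30 and a bipolar mean of 5.81. Its pigment epithelium genes were not low: their mean was 9.01, and Rpe65 read 10.54. How much retina each punch held was not measured, and its part in these values was not tested.

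Across ONH arrays, after each group's mean was subtracted, the members moved almost as 1 unit. Pearson's r of a member with the mean of the other members had a median of 0.938 over 60 arrays, and 22 of 31 members exceeded 0.9. Without severe replicates 3 and 6 the median was 0.932 over 58 arrays. Guca1b, a calcium sensor that activates guanylate cyclase, reached 0.994, Slc24a1, the rod sodium-calcium-potassium exchanger, 0.992 and Nrl 0.991. Grk1, the opsin kinase, was looser at 0.692, and its ONH group means of 4.65 to 5.00 lay at or under the filter level of 5. The exception was Gngt2 at 0.0823, whose ONH group means of 5.10 to 5.51 also lay near that level. Its cone partner Gnat2 stood at 0.933. Rod and cone means moved together in the ONH (r = 0.955, and 0.930 without the 2 arrays). These points share arrays and the composition of each punch, so they are descriptions and carry no test.

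In the retina the common movement was weaker. There the median r was 0.455 over 48 arrays, no member exceeded 0.9 and 19 of 32 were under 0.5. Rod and cone means correlated at 0.586, and at 0.401 without moderate replicate 2, the retina with the lowest member mean (10.55). Nrl was highest at 0.850. Gnb3, the cone transducin beta subunit that ON bipolar cells also use, ran the other way at −0.657, and at −0.387 without moderate replicate 2. Retinal spread was smallest in Prom1, a disc membrane protein (SD within groups 0.0312), and in Sag (0.0406), and largest in Arr3, the cone arrestin (0.289).

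**Figure D2:**
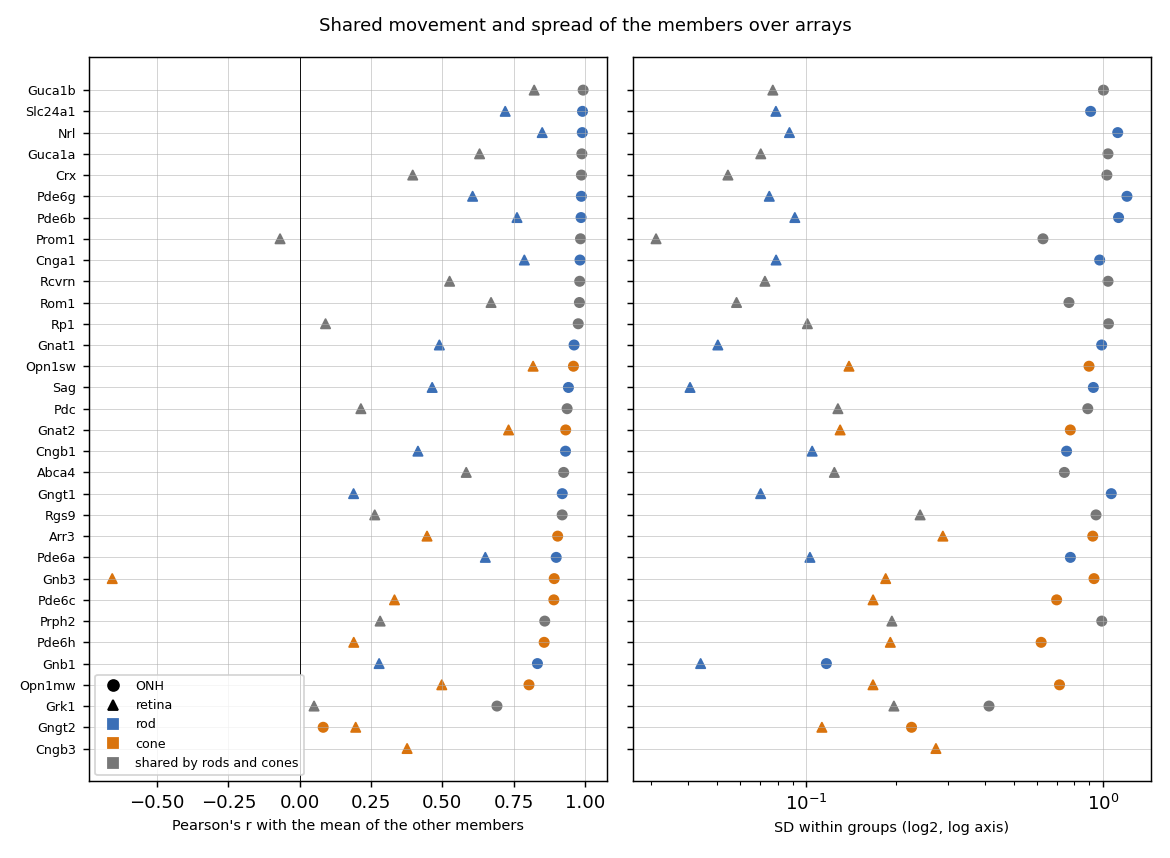
For each member, Pearson's r with the mean of the other members (left) and SD within groups on a log axis (right), for ONH (circles) and retina (triangles), coloured by rod, cone or shared use. ONH circles crowd near 1 with Gngt2 at 0.0823, and retina triangles lie at lower r, with Gnb3 at −0.657, and at smaller SDs.

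Markers of neighbouring retinal cells followed the photoreceptor genes in the ONH at lower r. Over 60 ONH arrays the member mean correlated at 0.983 with the mean of 33 further photoreceptor genes, at 0.786 with bipolar markers, at 0.800 with amacrine and horizontal markers and at 0.588 with pigment epithelium markers. Without severe replicates 3 and 6 these were 0.991, 0.564, 0.546 and 0.112. Retinal ganglion cell markers stood at 0.190, and the 4 markers of nerve head glia and myelin at −0.109. The genes outside the list that were most like the member mean in the ONH were Rtbdn, a retinal riboflavin-binding protein (0.990), Rdh12, a photoreceptor retinol dehydrogenase (0.981), Cplx4, a complexin of photoreceptor synapses (0.980), Reep6 (0.979) and Mpp4 (0.979). In the retina the closest were Kpna2 (0.819), Glb1l3 (0.807), Pnpla3 (0.771), Ckmt1 (0.767) and Tnfaip3 (0.762) over 48 arrays.

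**Figure D3:**
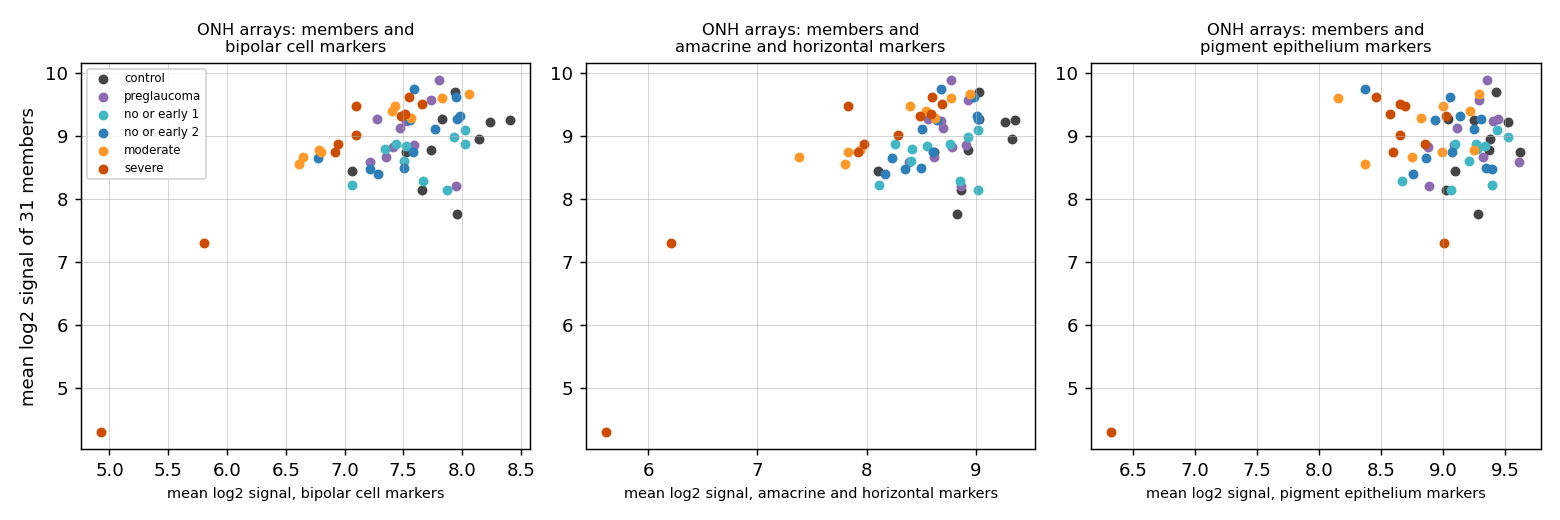
Member mean against the means of bipolar (left), amacrine and horizontal (centre) and pigment epithelium markers (right) on each of 60 ONH arrays, all in log2 signal and coloured by group. Severe replicates 6 and 3 stand apart at member means of 4.30 and 7.30.

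Few photoreceptor genes were called in the ONH, and those called were higher in DBA/2J eyes than in D2-Gpnmb+ controls. Differences are log2 differences ± SE from limma, and a gene was called when its p, adjusted over all genes of the comparison by Benjamini-Hochberg, was under 0.05. Against controls, 1 of 31 members was called higher in no or early eyes (2.19% of all 12100 genes tested were), 2 in moderate eyes (9.68%) and 1 in severe eyes (10.7%). None of the 31 was called lower, against 0.669%, 11.9% and 13.5% of all genes. No member was called in moderate against no or early eyes (2.85% of genes higher, 4.62% lower), severe against no or early (3.35% and 9.88%) or severe against moderate (1.27% and 2.46%). At an unadjusted p under 0.05, limma gave 1, 0 and 2 members in these 3 comparisons. The smallest p in moderate against no or early eyes belonged to Gnb3 (0.86 ± 0.362, adjusted p = 0.153), Pde6c (0.48 ± 0.271, adjusted p = 0.322) and Arr3 (0.60 ± 0.361, adjusted p = 0.363), which serve cones. In severe against no or early eyes they were Pdc, a transducin-binding phosphoprotein (−0.61 ± 0.334, adjusted p = 0.254), Gnat2 (−0.51 ± 0.293, adjusted p = 0.281) and Gngt1, the rod transducin gamma subunit (−0.69 ± 0.401, adjusted p = 0.287). In severe against moderate eyes they were Gnb3 (−0.88 ± 0.415, adjusted p = 0.264), Guca1a (−0.95 ± 0.463, adjusted p = 0.281) and Cngb1 (−0.66 ± 0.338, adjusted p = 0.308). Preglaucoma eyes gave no call against controls (2.21% and 3.87%; 1 member at an unadjusted p under 0.05) or against no or early eyes (9.83% and 4.78%; 0 members). The smallest p against controls belonged to Gngt2 (0.31 ± 0.103, adjusted p = 0.054), Opn1sw (0.50 ± 0.401, adjusted p = 0.515) and Prph2 (0.50 ± 0.442, adjusted p = 0.564). Gngt2 was called there under all 7 alternatives run, with adjusted p from 0.00549 to 0.0425. Between no or early and preglaucoma eyes the smallest p belonged to Opn1sw (−0.38 ± 0.342, adjusted p = 0.515), Nrl (−0.46 ± 0.427, adjusted p = 0.526) and Prph2 (−0.39 ± 0.378, adjusted p = 0.548). The 2 no or early sets gave no call (0% and 0% of genes; 0 members at an unadjusted p under 0.05), with a median difference of 0.36 over the members against 0.01 over all genes. The members with the smallest p between these sets were Cngb1 (0.59 ± 0.324, adjusted p = 1), Pde6h (0.41 ± 0.265, adjusted p = 1) and Grk1 (0.25 ± 0.178, adjusted p = 1).

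The members' median difference was −0.02 in no or early, 0.27 in moderate and −0.38 in severe eyes against controls, where the medians of all genes lay within 0.01 of 0. The severe median turned to 0.13 without severe replicate 6 and to 0.35 without replicates 3 and 6, arrays picked for the low signal of these genes. Severe against no or early eyes it turned from −0.32 to 0.14 and to 0.37, and severe against moderate from −0.62 to −0.11 and to 0.11. Of 9 bipolar markers in the ONH, 3 were called lower in moderate and 8 in severe eyes against controls (11.9% and 13.5% of all genes). Their median differences were −0.67 and −0.99. The severe values include replicates 3 and 6, whose bipolar means were 5.81 and 4.93. The median of that mean was 7.10 over severe arrays and 7.89 over controls.

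Gnb3 was the photoreceptor gene with the largest called rise in the ONH. Its log2 signal in control ONH ran from 7.40 over a median of 7.97 to 8.72, and in moderate ONH from 8.52 over 9.37 to 10.13. Most moderate eyes were above all controls and the ranges overlapped. The difference was 1.20 ± 0.421 (adjusted p = 0.0326). Severe eyes had a median of 9.18, a highest value of 9.79 and a lowest of 3.61, which was replicate 6. Severe against control was not called with all 10 arrays, and the difference was 0.87 ± 0.285 without replicate 6 and 1.20 ± 0.237 without replicates 3 and 6. Those arrays were left out for their low photoreceptor signal, so the values without them describe the remaining arrays and carry no test.

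Gngt2 was the other member called, and the only one called in all 3 stages against controls. Its control ONH values ran from 4.93 over a median of 5.08 to 5.40. The medians were 5.54 and 5.56 in the no or early sets, 5.55 in moderate and 5.44 in severe eyes, and each range overlapped that of the controls. The differences were 0.40 ± 0.0882 (adjusted p = 0.00388), 0.36 ± 0.105 (adjusted p = 0.00908) and 0.37 ± 0.102 (adjusted p = 0.00432), all close to the level of 5 that the filter used. In the retina Gngt2 read about the same in every group (control median 5.12, severe median 5.11). Over 60 ONH arrays its r was 0.376 with Tyrobp and 0.383 with Cd68, a macrophage lysosomal protein, and 0.0576 with Gnat2. Those partners were chosen after the values were seen.

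**Figure D4:**
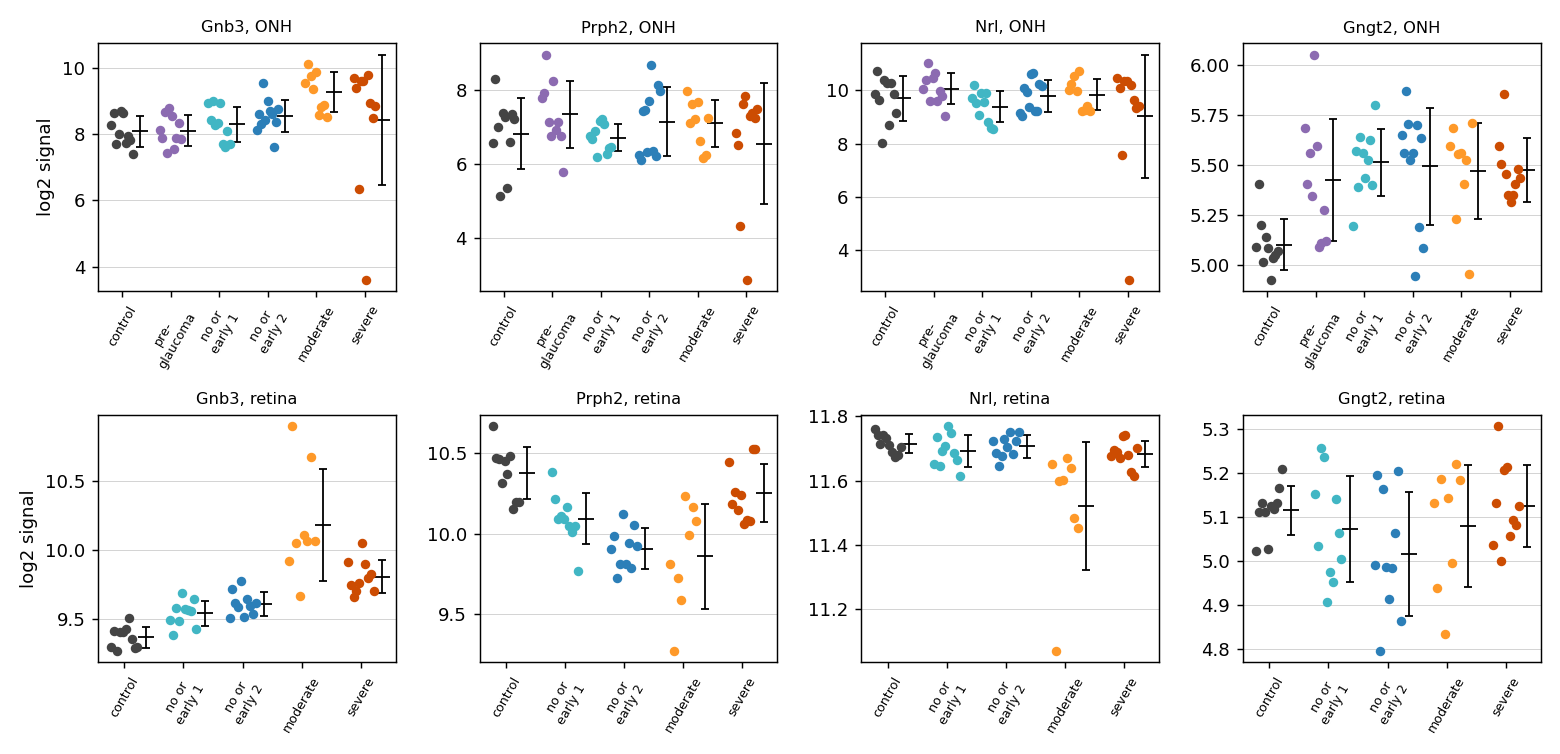
Log2 signal of Gnb3, Prph2, Nrl and Gngt2 on each array of the ONH (top) and retina (bottom), by group, with means and SDs as bars; the vertical scale differs between panels. Retinal Gnb3 peaks in moderate eyes, where 1 array reads 10.90, and Prph2 is lowest in the moderate group at a median of 9.90.

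Within an eye, the ONH held less signal than the retina for nearly every member. In 10 control eyes, 30 of 31 members were called lower in the ONH (58% of 10728 genes were called lower and 24.7% higher), with a median of −2.01 against −0.31 over all genes. The labels do not say whether the arrays of both tissues were normalized together. The effect of normalization on the size of these differences between tissues, and on their p-values, was not tested. The differences included Prph2, a tetraspanin of disc rims (−3.56 ± 0.327, adjusted p = 1.2e-13), and Cngb1, the rod channel beta subunit (−3.16 ± 0.249, adjusted p = 7.73e-16). The cone opsin Opn1mw differed by −3.43 ± 0.22 (adjusted p = 6.57e-19), but its control ONH median of 4.96 lay under the filter level, where the size of a difference is poorly resolved. Sag differed by −0.96 ± 0.325 (adjusted p = 0.00669), Gnat1 by −1.22 ± 0.345 (adjusted p = 0.00136) and Gnb1 by −0.66 ± 0.045 (adjusted p = 6.01e-18). Gngt2 showed no difference that passed (−0.02 ± 0.0823, adjusted p = 0.86). The ONH-minus-retina difference was then compared between stages over the 48 eyes with both tissues. It rose in no or early eyes for Gngt2 alone (0.49 ± 0.1, adjusted p = 0.00628), 1 of 31 members where 0.345% of genes were called higher and 0.196% lower. No member was called in moderate (0.699% and 1.46%) or severe (5.6% and 9.59%) against no or early eyes, nor was any at an unadjusted p under 0.05 in limma. The smallest p values belonged in moderate eyes to Cngb1 (0.55 ± 0.32, adjusted p = 0.51), Arr3 (0.66 ± 0.399, adjusted p = 0.532) and Opn1mw (0.41 ± 0.283, adjusted p = 0.608). In severe eyes they belonged to Gnat2 (−0.60 ± 0.315, adjusted p = 0.202), Prph2 (−0.63 ± 0.392, adjusted p = 0.295) and Gngt1 (−0.72 ± 0.45, adjusted p = 0.301).

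In the retina the changes were small and differed by gene and stage. Of 32 members, 1 was called lower and none higher in no or early eyes against controls (0.0353% and 0.00883% of 11322 genes). Moderate eyes had 1 higher and 5 lower against controls (7.08% and 8.4%), and severe eyes 4 higher and 1 lower (13.8% and 18.2%). The members' medians were 0.00, −0.08 and 0.03 (all genes −0.01, −0.01 and −0.02). Against no or early eyes, moderate eyes had 1 higher and 7 lower (7.65% and 7.51%) and severe eyes 7 higher and 2 lower (19.9% and 24.2%). Severe against moderate eyes gave 15 higher and 2 lower (16.9% and 21.5%), with a median of 0.09 against −0.02 over all genes. The 2 no or early sets gave no call (0% and 0% of genes; 1 member at an unadjusted p under 0.05 in limma), and the smallest p belonged to Prph2 (−0.18 ± 0.0857, adjusted p = 0.769), Pde6c (0.14 ± 0.0742, adjusted p = 0.784) and Rgs9 (−0.16 ± 0.105, adjusted p = 0.801). The stage comparisons share their control or no or early eyes.

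Retinal levels of the same genes, are given in that order without preglaucoma. Gnat1 had retinal medians of 12.81, 12.81, 12.84, 12.80 and 12.86, with control values from 12.76 to 12.90, moderate values from 12.68 to 12.87 and severe values from 12.78 to 12.92. Gnat2 had retinal medians of 9.74, 9.73, 9.80, 9.77 and 9.83, with control values from 9.66 to 9.87, moderate values from 9.11 to 9.97 and severe values from 9.77 to 10.02. The transducin groups overlapped. Pde6b had retinal medians of 12.02, 12.04, 12.03, 12.01 and 12.06, with control values from 11.98 to 12.13, moderate values from 11.52 to 12.13 and severe values from 11.98 to 12.12. Pde6h had retinal medians of 9.97, 10.01, 10.04, 10.18 and 9.95, with control values from 9.86 to 10.13, moderate values from 9.52 to 10.40 and severe values from 9.73 to 10.43. The moderate group reached lowest for both enzyme subunits. Opn1sw had retinal medians of 10.77, 10.77, 10.80, 10.79 and 10.77, with control values from 10.64 to 10.89, moderate values from 10.09 to 10.88 and severe values from 10.47 to 10.89. Opn1mw had retinal medians of 8.41, 8.39, 8.34, 8.22 and 8.34, with control values from 8.18 to 8.60, moderate values from 8.08 to 8.71 and severe values from 8.17 to 8.59. Both opsins overlapped between groups. Sag had retinal medians of 13.25, 13.26, 13.27, 13.28 and 13.32, with control values from 13.24 to 13.29, moderate values from 13.14 to 13.31 and severe values from 13.27 to 13.36. Arr3 had retinal medians of 10.92, 10.82, 10.86, 10.68 and 10.63, with control values from 10.49 to 11.30, moderate values from 9.63 to 11.25 and severe values from 10.30 to 10.86. Sag varied far less than its cone relative. Nrl had retinal medians of 11.71, 11.69, 11.71, 11.60 and 11.68, with control values from 11.67 to 11.76, moderate values from 11.07 to 11.67 and severe values from 11.61 to 11.74. Crx had retinal medians of 11.52, 11.47, 11.52, 11.46 and 11.61, with control values from 11.43 to 11.64, moderate values from 11.29 to 11.51 and severe values from 11.51 to 11.67. Nrl was lowest in moderate eyes, and Crx highest in severe eyes by its median.

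Gnb3 rose in the retina at both later stages and most in moderate eyes. Control retinas ran from 9.27 over a median of 9.38 to 9.50, and the no or early sets had medians of 9.56 and 9.60. Moderate retinas ran from 9.67 over 10.06 to 10.90 and severe retinas from 9.66 over 9.78 to 10.05, both above all 10 controls. Of all genes tested, 1.38% in moderate and 7.29% in severe against control retinas had no overlap. Moderate against control differed by 0.82 ± 0.0866 (adjusted p = 2.62e-09), severe against control by 0.44 ± 0.0819 (adjusted p = 4.62e-05) and severe against moderate by −0.38 ± 0.086 (adjusted p = 0.000613). Without moderate replicate 2 the moderate rise was 0.72 ± 0.0712 (adjusted p = 6.12e-10, range over the 10 alternatives 2.13e-12 to 0.00102). Over 48 retinas Gnb3 correlated at 0.773 with Gfap, and at 0.635 without moderate replicate 2, a partner chosen after the values were seen. Of 10 bipolar markers, none was called higher and 2 lower in moderate against control retinas (7.08% and 8.4% of all genes). The other transducin subunits moved little: Gnat1 had medians of 12.81 in control and 12.80 in moderate retinas, and Gnat2, the cone alpha subunit, 9.74 and 9.77. Severe against moderate, Gnat1 (0.07 ± 0.0286, adjusted p = 0.0414) and Gnat2 (0.20 ± 0.0617, adjusted p = 0.0103) were called higher.

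Prph2 was the member called lower in no or early retinas. Its control retinas ran from 10.15 over a median of 10.41 to 10.67, no or early set 1 from 9.77 over 10.09 to 10.38 and set 2 from 9.73 over 9.92 to 10.12. All of set 2 lay under all controls, but set 1 and so the 2 sets together overlapped them. The share of all genes without overlap was not counted for set 2 alone. The 2 sets together differed from controls by −0.37 ± 0.0746 (adjusted p = 0.0194), 1 of only 5 genes called in that comparison. Among mice of the number range that holds all controls the difference was −0.33 and was not called (adjusted p = 0.215, range over the 9 alternatives 0.000497 to 0.215). Moderate retinas ran from 9.28 over 9.90 to 10.23 and differed by −0.52 ± 0.0911 (adjusted p = 6.92e-05). Severe retinas stood at a median of 10.21, called higher than moderate (0.40 ± 0.0905, adjusted p = 0.000613) and no or early eyes (0.26 ± 0.0743, adjusted p = 0.00471). Its partner in the disc rim, Rom1, had medians of 11.89 in control, 11.83 in moderate and 11.95 in severe retinas, with a moderate fall of −0.10 ± 0.0279 against no or early eyes (adjusted p = 0.0116). Abca4, the disc retinoid transporter, fell in the same comparison by 0.21 on the log2 scale (SE 0.0526, adjusted p = 0.00431).

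Members of all 3 classes lay slightly lower in moderate than in control retinas, with median differences of −0.09 for 11 rod, −0.09 for 9 cone and −0.08 for 12 shared genes. Nrl ran from 11.67 over 11.71 to 11.76 in controls and from 11.07 over 11.60 to 11.67 in moderate eyes, so the groups met without overlapping, as did those of 1.38% of all genes tested (−0.19 ± 0.0438, adjusted p = 0.00157). Pde6g (−0.12 ± 0.0386, adjusted p = 0.0328) and Slc24a1 (−0.12 ± 0.0401, adjusted p = 0.0289) were also called lower than in controls. So was Cngb3, the cone channel beta subunit (−0.42 ± 0.127, adjusted p = 0.0187). Against no or early eyes, Cngb1 (−0.17 ± 0.045, adjusted p = 0.00805), Cnga1, the rod channel alpha subunit (−0.11 ± 0.0354, adjusted p = 0.0358), Nrl, Pde6g and Slc24a1 fell. There 5 of the 11 rod members and none of the 9 cone members were called lower, beside 7.51% of all genes. The class medians were −0.10 and −0.08, and the difference between the classes was not tested.

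These falls rested partly on moderate replicate 2, the retina with the lowest member mean, and since it was picked for that mean the values without it describe the remaining arrays. That retina had an Nrl signal of 11.07, a Crx signal of 11.29 and the highest nerve head glia and myelin mean (9.97) and Müller glia mean (11.29) of the moderate eyes, with the lowest bipolar mean (7.83) and amacrine and horizontal mean (8.67). Without it, 3 of the 6 calls against controls stood (Gnb3, Prph2 and Nrl) and 3 of the 8 against no or early eyes (Gnb3, Nrl and Abca4). Nrl then differed from controls by −0.13 ± 0.0289 (adjusted p = 0.00186), and over its 10 alternatives the adjusted p ranged from 0.00145 to 0.0847. Of 6 Müller glia markers, 3 were called higher in moderate and 4 in severe retinas against controls (7.08% and 13.8% of all genes). Their median differences were 0.17 and 0.36. Their part in the photoreceptor differences was not tested.

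In severe retinas Gnb3, Cnga1, Rp1 and Crx were higher than in controls. Cnga1 ran from 10.70 over 10.76 to 10.80 in controls, from 10.38 over 10.72 to 10.81 in moderate and from 10.86 over 10.91 to 11.02 in severe eyes. All 10 severe retinas exceeded all controls and all moderate retinas. Against controls Cnga1 and Gnb3 were the members without overlap, 2 of 32 where 7.29% of all genes had none. Cnga1 differed from controls by 0.15 ± 0.0381 (adjusted p = 0.00203), from no or early eyes by 0.15 ± 0.0328 (adjusted p = 0.000178) and from moderate eyes by 0.26 ± 0.04 (adjusted p = 2.36e-06). Slc24a1, which works beside the channel in the outer segment, ran from 11.78 to 11.91 in severe and from 11.32 to 11.76 in moderate retinas (0.21 ± 0.0398, adjusted p = 4.95e-05). Cngb1, the partner subunit of Cnga1, went the other way and was lower in severe than in no or early eyes (−0.16 ± 0.0418, adjusted p = 0.00172). Its median was 9.47 in severe and 9.59 in control retinas.

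Crx, the homeodomain factor shared by rods and cones, had retinal medians of 11.52 in control, 11.46 in moderate and 11.61 in severe eyes. It was called higher in severe than in control (0.08 ± 0.0287, adjusted p = 0.0218), no or early (0.11 ± 0.0248, adjusted p = 0.000278) and moderate eyes (0.17 ± 0.0302, adjusted p = 3.26e-05). Its second probe set moved oppositely, and with the mean of all probe sets the severe against no or early difference was −0.02 (adjusted p = 0.526, range over the 10 alternatives 3.71e-05 to 0.526). That setting also ended the call against moderate eyes (0.05, adjusted p = 0.294, range over the 11 alternatives 3.47e-05 to 0.294). Against controls the call was lost in 3 of 10 alternatives (0.02 to 0.07, adjusted p from 0.102 to 0.666): the mean of all probe sets, the number range as a factor, and the range of the controls alone. Rp1, a microtubule protein of the outer segment, was higher in severe than in control retinas (0.15 ± 0.0467, adjusted p = 0.0128). Nrl was not called in severe against control or no or early eyes and had a severe median of 11.68.

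Shut-off genes split. Grk1 was lower in severe retinas than in controls (−0.23 ± 0.0876, adjusted p = 0.0348), no or early eyes (−0.21 ± 0.0755, adjusted p = 0.0236) and moderate eyes (−0.36 ± 0.092, adjusted p = 0.00222). Its medians were 6.57 in control, 6.70 in moderate and 6.35 in severe eyes, with overlapping ranges. Sag was higher in severe than in no or early eyes by 0.06 ± 0.0207 (adjusted p = 0.0228). Rgs9, the GTPase-activating protein of transducin, and recoverin (Rcvrn), the calcium sensor that restrains the opsin kinase, gave no retinal call. Other Rgs9 probe sets, of mean signal 5.19 and 4.60, differed by 0.44 and −0.00233 between severe and no or early retinas. The used one differed by 0.15, and the others were not tested alone.

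Severe against moderate, 7 of the 11 rod members, 2 of the 9 cone members and 6 of the 12 shared members were called higher, and Gnb3 and Grk1 lower. Of all genes, 16.9% were called higher and 21.5% lower. The class medians were 0.10, 0.05 and 0.12, and their differences were not tested. Cngb3 had the largest rise (0.47 ± 0.126, adjusted p = 0.00325). Guca1a, a guanylate cyclase activator, and Pde6b, the rod phosphodiesterase beta subunit, rose by 0.10 ± 0.0363 (adjusted p = 0.0214) and 0.12 ± 0.0452 (adjusted p = 0.0355). Cnga1 and Slc24a1, 2 of the 32 members, had ranges that did not overlap, as had 3.67% of all genes tested. Without moderate replicate 2, 11 of the 17 calls remained, from Cnga1 (0.22 ± 0.036, adjusted p = 7.4e-06) to Rp1 (0.14 ± 0.0514, adjusted p = 0.0365). Retinal ganglion cell markers give the scale of the severe stage: their mean was 6.17 ± 0.417 in severe retinas (SD, n = 10) and 8.95 ± 0.053 in controls (SD, n = 10).

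**Figure D5:**
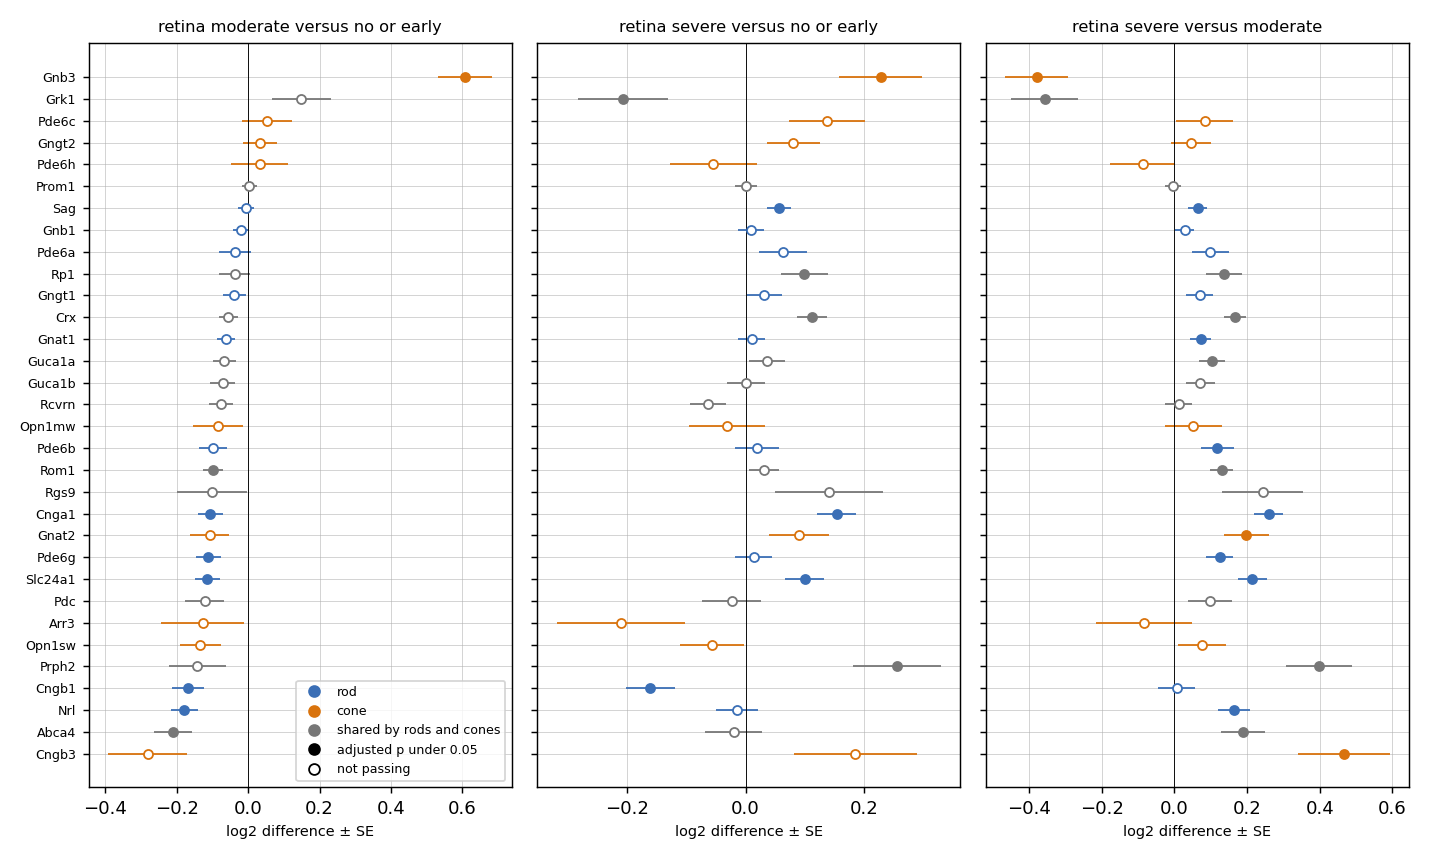
Log2 difference ± SE of each member in the retina for moderate against no or early (left), severe against no or early (centre) and severe against moderate eyes (right), with filled points at an adjusted p under 0.05, coloured by rod, cone or shared use. Gnb3 lies at 0.61 in the left panel and at −0.38 in the right one, and genes such as Nrl, Slc24a1 and Cnga1 sit left of 0 in the first panel and right of it in the third.

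Other cone members gave few retinal calls. Opn1sw, the short-wavelength opsin, had medians of 10.77, 10.79 and 10.77 in control, moderate and severe retinas, and Opn1mw 8.41, 8.22 and 8.34. Neither was called at any stage, and their groups overlapped. For Opn1sw this holds for the probe set used. Another one was 0.31 higher in severe than in no or early retinas, where the used one differed by −0.06, and it was not tested alone. Arr3 ran from 10.49 to 11.30 in controls and from 10.30 to 10.86 in severe retinas, and was not called. Its other probe sets differed by −0.27 and −0.27 between no or early and control retinas, where the used one differed by −0.06. They were not tested alone. Pde6c and Pde6h, the catalytic and inhibitory subunits of the cone phosphodiesterase, had medians of 8.32 and 9.97 in control and 8.50 and 9.95 in severe retinas.

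A further list of 40 photoreceptor genes outside the set moved in both directions too. Of 34 tested in the retina, 1 rose and 7 fell in moderate against control eyes (7.08% and 8.4% of all genes). In severe against control eyes 4 rose and 4 fell (13.8% and 18.2%). In severe against moderate eyes 10 rose and 1 fell (16.9% and 21.5%). Slc24a2, the exchanger of cones that ganglion cells also make, was lower in moderate (−0.38 ± 0.0981, adjusted p = 0.00532) and severe retinas (−0.46 ± 0.0927, adjusted p = 0.000124) than in controls. Rgs9bp, the membrane anchor of Rgs9, was lower in moderate than in control (−0.20 ± 0.0529, adjusted p = 0.00736) and higher in severe than in moderate retinas (0.29 ± 0.0525, adjusted p = 2.95e-05). In the latter comparison Ppef2 (0.34 ± 0.0707, adjusted p = 0.000246) and Rp1l1 (0.24 ± 0.044, adjusted p = 3.64e-05) also rose. Nxnl1, which encodes a rod-derived cone survival factor, was lower in moderate than in control retinas (−0.35 ± 0.088, adjusted p = 0.00474). In the ONH, 33 were tested. Against controls none was called higher in no or early, moderate or severe eyes (2.19%, 9.68% and 10.7% of all genes). At these stages 0, 1 and 2 were called lower (0.669%, 11.9% and 13.5%). Those were Slc24a2 in moderate (−1.10 ± 0.224, adjusted p = 0.000235) and severe eyes (−1.63 ± 0.219, adjusted p = 4.03e-08), and Rorb, a nuclear receptor of rods and other retinal neurons, in severe eyes (−1.29 ± 0.388, adjusted p = 0.00959). Slc24a2 was also lower in moderate (−0.65 ± 0.192, adjusted p = 0.0252) and severe (−1.18 ± 0.186, adjusted p = 2.05e-06) than in no or early ONH. Prdm1, a repressor that favours photoreceptor over bipolar fate, was called higher in preglaucoma than in control ONH (0.62 ± 0.148, adjusted p = 0.00543) and lower in no or early than in preglaucoma ONH (−0.59 ± 0.126, adjusted p = 0.000818).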

How the data were processed

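The authors deposited log2 signals of 45101 probe sets on 108 arrays, made with GCOS, RMA and affy per the submitters' processing notes, with versions and background steps not given in the sources used here. Values ran from 1.81 to 14.31, with array medians of 4.88 to 5.23 in the ONH and 5.02 to 5.16 in the retina. Probe sets with 1 gene (34958) were kept, and 932 with several genes and 9211 with none were left out. limma 3.58.1 in R 4.3.3 was fitted per tissue over all groups, with the mouse as a random block (within-mouse correlation 0.0774 in the ONH, 0.0366 in the retina) and p-values adjusted by Benjamini-Hochberg over the 12100 or 11322 genes tested. Same-eye ONH-minus-retina differences were fitted alike over 10728 genes (correlation 0.0989). "No or early" is the mean of sets 1 and 2. Scripts were tested on simulated data. Members and lists were chosen with earlier results of these data known. Any member could be named: per comparison up to 8 called members by size or, with none, the 3 of smallest p, with levels in every group for 10. Of other genes, Gpnmb, the 5 most alike per tissue and up to 8 called of the further photoreceptor list could be. Leaving out severe replicates 3, 4, 5 and 6 or moderate replicate 2 was added after seeing the data. Within a tissue, equal replicate numbers in different groups were not treated as pairs. Across tissues, arrays of the same group and replicate number came from the same eye.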

Additional observations from a re-analysis of the deposited data

Results flagged for a closer look

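A single far value was looked for in 16 measures over 10 groups of 8 to 10 arrays, and 17 of the 160 searches found one. The ONH no or early set 2, with 11 arrays, was not searched. Chance flags about 1 in 20 groups, but these measures share arrays and 10 of the 17 were 1 array, so that rate gives no scale here. In the ONH, severe replicate 6 stood far below the other severe arrays in the member mean (4.30), the rod mean (4.55) and the cone mean (4.01). It did so in Gnat1 (4.77), Pde6b (2.94), Opn1sw (3.90), Arr3 (4.08), Sag (5.89), Nrl (2.88) and Crx (3.52). Gngt2 was far above the rest in ONH severe replicate 3 (5.85).

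In the retina, no or early 2 replicate 3 was far from its group in Gnat2 (10.00) and Pde6b (12.15), both high, and in Sag (13.11), low. Severe replicate 5 was high in the cone phosphodiesterase subunit Pde6h (10.43). Moderate replicate 2 was low in Nrl (11.07) and Crx (11.29). Between tissues, the no or early against control difference of Gngt2 was larger in the ONH than in the retina of the same eyes by 0.49 (SE 0.1, adjusted p = 0.00628 in limma).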

How the results depend on the processing

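Of counts of called members under the alternatives, 142 stayed within 1.5 times the first value and 33 did not. Among single called members, 540 kept their call and direction, 99 lost the call and 1 reversed (Crx in severe against no or early retinas, −0.0241 with the mean of all probe sets). In the ONH, preglaucoma against control went from 0 to 1 called member (Gngt2) with array weights, the mean of all probe sets, no mouse block, only the groups compared, quantile normalization or a replicate block (1), and to 2 with no filter. No or early against preglaucoma went to 1 with no filter. Moderate against no or early went to 1 (Gnb3) with array weights or only the groups compared. Severe against control went from 1 to 2 with array weights, no filter or without severe replicate 6, and to 4 without severe replicates 3 and 6, arrays picked for the low signal of these genes, a setting that took severe against no or early from 0 to 3. In the retina, array weights gave 3 called members instead of 6 in moderate against control (median −0.0152), 2 instead of 8 in moderate against no or early (median −0.0277), 2 instead of 1 in no or early against control and 14 instead of 5 in severe against control. Fits to only the groups compared gave 2, 5, 2 and 10 in those comparisons and 11 instead of 17 in severe against moderate. Using only mice of the number range that holds all controls gave 2 in moderate against no or early, 0 in no or early against control, 3 in severe against control, 5 in severe against moderate and 2 instead of 9 in severe against no or early. The range as a factor gave 3 in severe against control. Without moderate replicate 2 the counts were 3, 3 and 11 for moderate against control, moderate against no or early and severe against moderate. Same-numbered arrays of different groups had a mean correlation of 0.0973 over 145 ONH pairs, against −0.00896 for other pairs. Over 92 retina pairs it was −0.0221, against 0.005. Of these pairs, 75 of 145 in the ONH and 27 of 92 in the retina exceeded 0.1. The main fits did not use the numbers as pairs between groups, and the replicate block moved no other count by over 1.5 times. Calls that held under every alternative run were all 4 in the ONH stage comparisons with controls and, in the retina, Gnb3 and Prph2 in moderate and Gnb3 and Cnga1 in severe against control, Gnb3 in moderate and Cnga1 and Cngb1 in severe against no or early, and Cnga1, Slc24a1, Prph2 and Cngb3 in severe against moderate. Retinal differences under about 0.2 rest on within-group SDs near 0.102.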

Other observations

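The authors also deposited log2 values of the probe sets they clustered, 570 for the ONH and 599 for the retina, equal to those of the main table. None of the ONH probe sets was one of the photoreceptor and phototransduction genes, and 2 of the retinal ones were (Gnb3 and Prph2).

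In severe against no or early ONH, 6 of 9 bipolar markers were called lower (9.88% of all genes were), with a median log2 difference of −0.69. These values include severe replicates 3 and 6, the ONH arrays with the lowest bipolar means. In severe against moderate retinas, 4 of 10 bipolar markers rose (16.9% of all genes did) and none was called lower, with a median of 0.08 beside 0.09 for the photoreceptor members. Differences between the lists were not tested. In severe against control retinas none of the 10 was called (13.8% of all genes were called higher and 18.2% lower), with 1 at an unadjusted p under 0.05 in limma.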
